A study of Homo sapiens with 12 samples.

Results

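Interferon-stimulated genes were followed in 3 human renal cell carcinoma lines in which the activity of the microRNA miR-29 had been raised or lowered by transfected RNA. The group comprised 43 listed genes out of the 58051 genes counted, matched by symbol, and all 43 were found. They were chosen by name, to describe innate responses to transfected RNA, with the measured changes of treated against control cells in each line already known. Changes with treatment are therefore a description of these genes, and the calls among them lend no independent weight to their direction.

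RNA-seq read counts of 12 libraries were used. The 786-O line, labelled as a clear cell renal cell carcinoma line, gave 1 library after transfection of a miR-29 mimic and 1 after a control mimic. A-498, with the same label, gave 2 libraries with the mimic (replicates 1 and 2) and 2 with the control mimic (replicates 1 and 3), and ACHN, also so labelled, gave 3 libraries after an inhibitor of miR-29 and 3 after a control inhibitor. All groups, controls included, had received a synthetic oligonucleotide at 10 nM with a lipid transfection reagent, and RNA was taken 48 h later, so no library came from untransfected cells. A mimic is a synthetic RNA that adds miRNA activity and an inhibitor one that blocks it. Other A-498 libraries, excluded by the study as possibly mislabelled, were not analysed here. The study calls the A-498 and ACHN replicates biological, but the labels do not say whether they came from separate cultures. The p-values measure the spread between these libraries, and how much of it is technical is not known.

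Type I and type III interferons are secreted proteins that bind receptors on the same or neighbouring cells. The receptors signal through JAK kinases to STAT2, which joins IRF9 in a complex that binds the interferon-stimulated response element (ISRE) in promoters. The genes switched on in this way block viral entry, sense or degrade viral RNA, tag proteins with the ubiquitin-like ISG15, or amplify the response, and many are also transcribed at a low level without interferon. Double-stranded RNA that enters a cell can be sensed by RIG-I, MDA5, TLR3, PKR and the OAS enzymes, which is why these genes are often looked at after transfection of RNA. The miR-29 family is best known for repressing collagens and other matrix genes.

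The members of the miR-29 family share 1 seed, and their mature sequences are shown because the seed sets which sites a mimic can pair with. The sequences are from RefSeq (GRCh38.p14), and capitals mark the seed, bases 2 to 8.
hsa-miR-29a-3p: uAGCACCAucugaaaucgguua
hsa-miR-29b-3p: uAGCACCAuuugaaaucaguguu
hsa-miR-29c-3p: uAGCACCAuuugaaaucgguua

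A site complementary to the seed (TGGTGCT) was present in the longest GENCODE v44 3′ UTR of 2 of the 43 interferon-stimulated genes (4.65%), against 15.04% of 19248 protein-coding genes, while the median 3′ UTR measured 1534 nt in the group and 1228.5 nt over all. The pair of genes with a site were OAS3, at 1899 nt from the stop codon (GRCh38 chr12:112971872-112971878, plus strand), and XAF1, at 1029 nt (chr17:6774198-6774204, plus strand). Among 102 genes of interferon signalling and related lists, 14 had a site (13.7%). Those of STAT3 (chr17:42314822-42314828, minus strand), MAVS (chr20:3866510-3866516, plus strand), TLR3 (chr4:186086821-186086827, plus strand) and NMI (chr2:151270520-151270526, minus strand) are shown since their values are given further on. These were named for large called changes and do not stand for all 14. In A-498 the mimic libraries lay above the controls for SP100 (62.8 and 69.4 CPM in controls, 74.0 and 74.2 CPM with the mimic), CIITA, SOCS1 and IFI30. The mimic libraries lay below the controls for TAP2, TAPBP and TRIM14 and overlapped them for SAMHD1 and GBP5. IFNG had 0 to 1 counts there. Capitals mark the match, and the isoform with the longest 3′ UTR may not be the one expressed.
OAS3: tcccccatctTGGTGCTgaaccaacgc
XAF1: tacaaaagcaTGGTGCTggtacaaaag
STAT3: acagcctcctTGGTGCTttaagcattc
MAVS: ctggaacatgTGGTGCTtgggaatgcc
TLR3: tccaggttctTGGTGCTttgaacaagg
NMI: ttgtttcaaaTGGTGCTgcatgttttc

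The core of the ISRE, GAAA followed by any 2 bases and GAAA on either strand, was searched in RefSeq promoter windows around the start of each gene. It was present in 23 of the 35 interferon-stimulated genes with an entry (65.7%), against 996 of 27305 promoters (3.65%) and 10 of 22 (45.5%) in a further list of interferon-stimulated genes. IFIT2, IFITM2, USP18, MX2, TRIM22, OAS2, OASL and IRF7 had no entry. The matches below are shown because these genes went different ways in the comparisons although each window held the motif. Capitals mark the motif, each sequence is on the strand of the gene, and a match is a description and not a bound site. The lowest coordinate of each motif is chr10:89392507 (IFIT1), chr1:1013390 (ISG15), chr13:42992282 (EPSTI1), chr4:168318831 (DDX60), chr21:41420569 (MX1) and chr2:37156977 (EIF2AK2) in GRCh38.p14. EPSTI1, DDX60 and EIF2AK2 lie on the minus strand and the others on the plus strand. In ISG15 another match overlaps the one shown.
IFIT1: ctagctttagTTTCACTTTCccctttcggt
ISG15: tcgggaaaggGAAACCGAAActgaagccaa
EPSTI1: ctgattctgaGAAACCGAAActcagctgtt
DDX60: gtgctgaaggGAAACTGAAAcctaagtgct
MX1: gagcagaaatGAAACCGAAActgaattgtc
EIF2AK2: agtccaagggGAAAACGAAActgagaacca

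Each library held between 39919554 and 70027392 reads in genes, and in ACHN the inhibitor libraries (52369886 to 70027392) were deeper than the controls (39919554 to 48626762). Of 9 known miR-29 targets used to check the labels, 9 were lower with the mimic in A-498 (27.0% of all genes). In ACHN 9 were higher with the inhibitor (17.3% of all genes), and in 786-O 8 had a ratio under 0 (51.0% of all genes). COL1A1 was at -1.86 in A-498, 2.48 in ACHN and -2.99 in 786-O on the log2 scale. All 10 renal carcinoma markers had reads in each line, but CA9 had 2 to 14 counts in 786-O and 1 to 7 in ACHN. EPCAM had 11 to 44 counts in A-498. The 8 immune markers summed to 41.2 to 42.2 CPM in 786-O, 19.2 to 25.5 CPM in A-498 and 5.70 to 7.40 CPM in ACHN, with the lymphocyte gene CD3E at or under 3 counts in all groups. NCAM1 made up most of that sum in 786-O (41.1 and 39.7 CPM) and A-498 (13.6 to 22.5 CPM) and ITGAM in ACHN (5.47 to 7.07 CPM), and PTPRC, CD14, CD68, CD79A and LYZ had at most 0.413 CPM. The 5 endothelial and fibroblast markers summed to 3.67 to 5.46 CPM in 786-O, 0.871 to 2.06 CPM in A-498 and 1.75 to 3.98 CPM in ACHN. CPM is the usual counts-per-million unit, relative to reads in genes and scaled within each line by TMM, a normalisation that centres most genes on no change.

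The A-498 controls differed from each other in these genes. Control replicate 3 was above control replicate 1 by a median of 0.12 on the log2 scale over 42 members, against -0.001 over all genes. MX1, a GTPase that blocks viral replication, stood at 45.8 and 63.6 CPM in the 2 libraries. In every other pair of replicate libraries the median difference over the members was between -0.03 and 0.03. Counts of calls in A-498 are therefore also given without each control.

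With the miR-29 mimic in A-498, interferon-stimulated genes went both ways. Of 42 members tested, 15 were higher (25.5% of all 19676 genes tested were higher), 13 were lower (27.0% of all genes) and 14 were not called (52.5% of all genes were called either way), by the quasi-likelihood test of edgeR at an adjusted p under 0.05. Their median log2 fold change was -0.04 and that of all genes 0.00. TRIM22, IFIT3 and HERC5 rose most, by 0.82 ± 0.04, 0.66 ± 0.07 and 0.58 ± 0.06 on the log2 scale (± SE here and below), and EPSTI1, IFITM1 and OAS2 fell most, at -0.997 ± 0.16, -0.72 ± 0.26 and -0.62 ± 0.08, and the call on IFITM1 was lost with library-size scaling and in DESeq2. Without control replicate 1 the counts were 13 higher and 19 lower, and without control replicate 3 they were 16 higher and 11 lower. Scaling by library size in place of TMM raised the median of all genes by 0.08 and the share of higher calls among all calls from 48.6% to 58.7%, with 17 members higher, IFITM3 and SP110 added, and 10 lower. With no filter on low counts EIF2AK2, IFI6, MX1 and OAS1 were also called lower, and PARP14 was not called. 

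In ACHN, where the inhibitor lowers miR-29 activity, the same genes were mostly higher. Of 37 members tested, 20 were higher (17.3% of all 17904 genes tested), 1 was lower (14.4% of all genes) and 16 were not called (31.7% of all genes were called either way), with a median of 0.15 against 0.00 for all genes. OAS2, EPSTI1 and SAMD9L rose most, by 0.96 ± 0.10, 0.88 ± 0.26 and 0.63 ± 0.05, and EIF2AK2 fell, at -0.25 ± 0.05. The inhibitor libraries were also the deeper ones, and the part of depth in these changes was not tested. IFITM1, BST2, MX2, RSAD2, CMPK2 and XAF1 did not pass the filter on low counts in ACHN.

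In 786-O, with 1 library per group and so no replicate check, 41 members had at least 10 counts in both libraries together. Their log2 ratio of mimic to control had a median of -0.32 (-0.01 over all genes), and 31 of 41 were under 0, against 51.0% of all 20370 genes. IFI44L, OASL and EPSTI1 were lower by 2-fold or more (8.96% of all genes), and CMPK2 was higher by 2-fold or more (6.73% of all genes). EPSTI1 rested on 10 and 4 counts, and CMPK2 on 1 and 12 counts, a ratio of 12.1 with an exact 95% interval from 1.80 to 519 that covers counting error only. The share of reads assigned to no feature was 14.3% in the control library and 18.3% in the mimic library, and its part in these ratios was not tested.

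Summed over the 43 genes, the level was 1605 CPM in the 786-O control and 1363 CPM with the mimic. It was 2260 and 2326 CPM in the A-498 controls against 2402 and 2454 CPM with the mimic. In ACHN it ran from 1679 to 1688 CPM in controls and from 1866 to 1876 CPM with the inhibitor. The groups of libraries did not overlap in either line, but without LGALS3BP, the most abundant of the genes, the A-498 controls (1587 and 1719 CPM) and mimic libraries (1689 and 1708 CPM) did overlap.

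**Figure D1:**
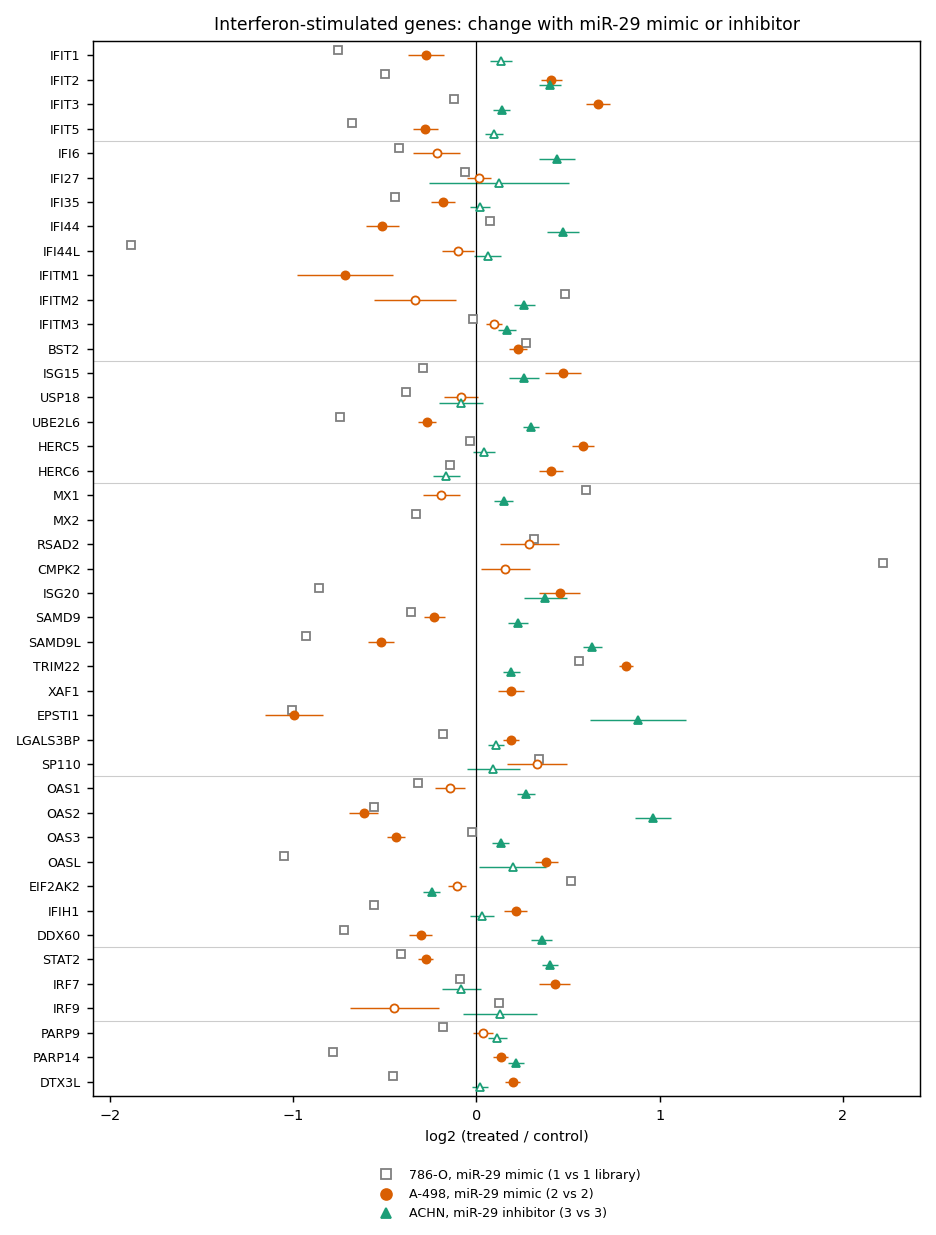
Log2 ratio of treated to control (x axis) for the 43 interferon-stimulated genes (y axis, ordered by role, roles separated by grey lines) in 786-O (squares, no replicates), A-498 (circles) and ACHN (triangles). Bars are SE, filled symbols were called by edgeR at an adjusted p under 0.05, and a gene not tested in a line has no symbol there. Most triangles lie right of 0 (20 members called higher in ACHN), circles lie on both sides (15 higher and 13 lower in A-498) and 31 of 41 squares lie left of 0.

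The IFIT proteins, which bind foreign RNA through tetratricopeptide repeats and stop its translation, are encoded in 1 cluster on chromosome 10. In A-498, 2 of the 4 genes rose and 2 fell (25.5% of all genes were higher and 27.0% lower). IFIT3 stood at 25.0 and 29.4 CPM in the control libraries and 43.5 and 42.6 CPM with the mimic, a change of 0.66 ± 0.07 (edgeR adjusted p = 1.31e-06). IFIT2 stood at 30.4 and 32.1 CPM in the control libraries and 40.3 and 42.7 CPM with the mimic (0.41 ± 0.06). In both genes the mimic libraries lay above the controls with no overlap. IFIT1 went the other way, with 18.98 and 24.8 CPM in the control libraries and 17.3 and 18.97 CPM with the mimic (-0.27 ± 0.10). Its call was lost without control replicate 3 (-0.08), without mimic replicate 1 (-0.22) and with library-size scaling (-0.20). IFIT5 fell, at -0.28 ± 0.07.

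In ACHN, IFIT2 stood at 18.5, 19.1 and 18.2 CPM in the control libraries and 25.0, 22.9 and 25.7 CPM with the inhibitor (0.40 ± 0.06, adjusted p = 4.52e-05 by edgeR), and the groups did not overlap. IFIT3 stood at 44.3, 46.1 and 43.4 CPM in the control libraries and 49.1, 47.3 and 50.7 CPM with the inhibitor (0.14 ± 0.05), a call that was lost when control replicate 1 or 3 or inhibitor replicate 1 or 3 was left out (0.11 to 0.13) and in DESeq2 (0.13). IFIT1 stood at 18.9, 17.9 and 18.6 CPM in the control libraries and 19.7, 19.5 and 21.6 CPM with the inhibitor (0.14 ± 0.06, not called), and without inhibitor replicate 2 its change of 0.15 was called. IFIT5 was at 0.10 ± 0.05 and not called, and it too was called without inhibitor replicate 2 (0.14). In 786-O all 4 ratios were under 0 (51.0% of all genes), with IFIT1 at 41.9 CPM in the control and 24.8 CPM with the mimic (-0.76), IFIT2 at 18.6 CPM in the control and 13.1 CPM with the mimic (-0.50) and IFIT3 at 42.9 CPM in the control and 39.4 CPM with the mimic (-0.12).

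Among the 9 IFI and membrane genes, 1 rose and 3 fell in A-498 (25.5% of all genes were higher and 27.0% lower), and 4 of the 7 tested in ACHN rose (17.3% of all genes). IFI44, an interferon-induced cytoplasmic protein, fell in A-498, with 25.4 and 32.4 CPM in the control libraries and 20.4 and 20.1 CPM with the mimic (-0.52 ± 0.09), and rose in ACHN, with 5.36, 5.79 and 5.35 CPM in the control libraries and 7.87, 7.09 and 7.85 CPM with the inhibitor (0.47 ± 0.09). The libraries of the 2 groups did not overlap in either line. Its neighbour IFI44L was not called in either (-0.10 ± 0.09 in A-498 and 0.06 ± 0.07 in ACHN) and had the lowest ratio of all members in 786-O, with 462 counts in the control and 124 with the mimic (-1.89). In A-498, IFI44L was at -0.28 and called lower without control replicate 1.

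IFI6, a small membrane protein that protects cells from apoptosis, rose in ACHN, with 4.31, 4.03 and 4.92 CPM in the control libraries and 5.92, 6.08 and 5.98 CPM with the inhibitor (0.44 ± 0.10). In A-498 it stood at 7.61 and 8.64 CPM in the control libraries and 5.87 and 8.17 CPM with the mimic (-0.22 ± 0.13, not called), and the groups overlapped. Without control replicate 1 or mimic replicate 2 it was called lower there, at -0.32 and -0.47. Of its exon length 23.1% is shared with the annotated gene LINC02574 on the same strand, so its counts are uncertain. Exon length was also shared with other genes on the same strand for IFITM1 (21.1%), IFIT2 (12.1%), TRIM22 (5.61%) and IFITM2 (1.93%). IFI35, which enters complexes with NMI, was lower in A-498 (-0.18 ± 0.06), but not without mimic replicate 1 (-0.09) nor with library-size scaling (-0.10). It was not called in ACHN, at 0.02 ± 0.06. IFI27, a mitochondrial protein, stood at 31.1 and 31.5 CPM in the control libraries and 29.3 and 34.0 CPM with the mimic in A-498 and was not called (0.01 ± 0.07). In ACHN it had 7 to 17 counts per library.

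The IFITM proteins hinder the fusion of virus with the cell membrane. IFITM3 stood at 96.2, 93.7 and 93.8 CPM in the control libraries and 105, 113 and 100.4 CPM with the inhibitor in ACHN (0.16 ± 0.05), a call lost without control replicate 2 or 3 (0.15 for both). In A-498 it stood at 101 and 95.6 CPM in the control libraries and 104 and 107 CPM with the mimic. It was not called there (0.10 ± 0.04) except without control replicate 1 (0.13) and with library-size scaling. IFITM2 rose in ACHN (0.26 ± 0.06). IFITM1 had 27 to 55 counts per library in A-498, and its fall there (-0.72 ± 0.26) was not called without control replicate 3 (-0.63) or mimic replicate 1 (-0.45), with library-size scaling (-0.64) or in DESeq2 (-0.72). These 3 genes are related in sequence, and their counts are uncertain where reads could belong to more than 1 of them. BST2 (tetherin), which holds budding virus at the cell surface, rose in A-498, with 73.8 and 72.1 CPM in the control libraries and 82.2 and 88.5 CPM with the mimic (0.23 ± 0.05). It was at 0.17 and not called without mimic replicate 2, and in ACHN it had 2 to 11 counts per library.

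In the ISG15 system, the ubiquitin-like protein itself, its ligases and the conjugating enzyme did not move as 1 in A-498. ISG15 stood at 9.55 and 8.52 CPM in the control libraries and 11.3 and 13.8 CPM with the mimic (0.47 ± 0.10), and the mimic libraries lay above the controls. HERC5, the main ligase for ISG15, stood at 20.9 and 20.8 CPM in the control libraries and 32.0 and 30.4 CPM with the mimic (0.58 ± 0.06, adjusted p = 1.22e-06 by edgeR). HERC6, a related ligase, also rose (0.40 ± 0.07). UBE2L6, the enzyme that carries ISG15 to the ligase, fell (-0.27 ± 0.05), and USP18, which removes ISG15 and damps the interferon receptor, stood at 7.09 and 6.497 CPM in the control libraries and 6.41 and 6.39 CPM with the mimic (-0.08 ± 0.09, not called).

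In ACHN the conjugating enzyme UBE2L6 rose (0.30 ± 0.04) and so did ISG15, with 8.16, 7.52 and 7.37 CPM in the control libraries and 8.86, 9.99 and 8.86 CPM with the inhibitor (0.26 ± 0.08). The call on ISG15 was lost without control replicate 2 or 3 or inhibitor replicate 2 (0.20 to 0.24). HERC5 stood at 17.7, 17.7 and 17.0 CPM in the control libraries and 18.3, 17.7 and 17.9 CPM with the inhibitor (0.04 ± 0.06, not called), with overlapping groups. HERC6 was at -0.16 ± 0.07 and not called, but it was called lower without inhibitor replicate 3 (-0.24). USP18 stood at 7.21, 5.65 and 6.25 CPM in the control libraries and 6.91, 6.33 and 4.86 CPM with the inhibitor (-0.09 ± 0.12, not called). All 5 ratios in 786-O were under 0 (51.0% of all genes), from -0.75 for UBE2L6 to -0.04 for HERC5, with ISG15 at 15.3 CPM in the control and 12.5 CPM with the mimic and USP18 at 3.93 CPM in the control and 2.99 CPM with the mimic.

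Of the 12 GTPases and other effectors, 11 were tested in A-498, where 4 rose and 3 fell (25.5% and 27.0% of all genes), and 8 in ACHN, where 6 rose (17.3% of all genes). TRIM22, an E3 ligase that restricts viral transcription, had the largest rise in A-498, with 95.3 and 99.4 CPM in the control libraries and 173 and 170.3 CPM with the mimic (0.82 ± 0.04, adjusted p = 7.02e-10 by edgeR). In ACHN it stood at 88.7, 89.1 and 84.7 CPM in the control libraries and 103, 96.5 and 99.6 CPM with the inhibitor (0.19 ± 0.05). In neither line did the groups overlap. In 786-O it had 50 and 75 counts (0.56).

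EPSTI1, an interferon-responsive gene, had the largest fall in A-498, with 3.19 and 4.29 CPM in the control libraries and 1.79 and 1.97 CPM with the mimic (-0.997 ± 0.16). In ACHN it stood at 0.493, 0.403 and 0.425 CPM in the control libraries and 1.01, 0.515 and 0.895 CPM with the inhibitor (0.88 ± 0.26) on 17 to 63 counts per library. The call in ACHN was lost without control replicate 2, inhibitor replicate 1 or inhibitor replicate 3 (0.69 to 0.82) and in DESeq2 (0.87). Inhibitor replicate 2, with 27 counts, lay closest to the controls.

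SAMD9 and its paralog SAMD9L, which curb translation during poxvirus infection, went down with the mimic and up with the inhibitor. SAMD9L stood at 41.8 and 47.0 CPM in the control libraries and 33.0 and 28.9 CPM with the mimic in A-498 (-0.52 ± 0.07). The ACHN levels were 46.4, 47.9 and 43.7 CPM in the control libraries and 75.4, 65.97 and 72.5 CPM with the inhibitor (0.63 ± 0.05, adjusted p = 3.80e-08 by edgeR). The groups were apart in both lines. SAMD9 changed less, by -0.23 ± 0.06 in A-498 and 0.23 ± 0.05 in ACHN. In 786-O, SAMD9L stood at 21.5 CPM in the control and 11.3 CPM with the mimic (-0.93).

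MX1 stood at 45.8 and 63.6 CPM in the control libraries and 48.2 and 47.8 CPM with the mimic in A-498 (-0.19 ± 0.10, not called), with overlapping groups, and was called lower without control replicate 1 (-0.42) or mimic replicate 1 (-0.21). In ACHN it stood at 24.8, 26.1 and 24.6 CPM in the control libraries and 27.5, 29.1 and 27.0 CPM with the inhibitor (0.15 ± 0.05), a call that was lost in 5 of the 6 fits that left out 1 library, those without a control or without inhibitor replicate 1 or 2 (0.11 to 0.17), and also with library-size scaling and in DESeq2 (0.14 for both). In 786-O, MX1 had 84 and 129 counts (0.60). MX2, a nuclear relative, had 0 to 13 counts in every library. ISG20, an exonuclease that degrades RNA, was higher in A-498 (0.46 ± 0.11) and ACHN (0.38 ± 0.12), but not in DESeq2 in either line (0.44 and 0.37), nor in ACHN without control replicate 1 or inhibitor replicate 1 or 2 (0.31 to 0.35). 

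RSAD2 (viperin) and its neighbour CMPK2, which act on nucleotides, were not called in A-498, at 0.29 ± 0.16 and 0.16 ± 0.13, and RSAD2 was called higher without control replicate 3 (0.47). XAF1, a pro-apoptotic gene with a miR-29 site, was higher in A-498 (0.19 ± 0.07), but not without control replicate 1 (0.07) or either mimic replicate (0.17 and 0.19), nor in DESeq2 (0.18). LGALS3BP, a secreted glycoprotein that binds galectins, rose in A-498 (0.19 ± 0.04) and was at 0.11 ± 0.04 in ACHN, not called. SP110, a nuclear body protein, was not called in either line (0.33 ± 0.16 and 0.09 ± 0.14).

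**Figure D2:**
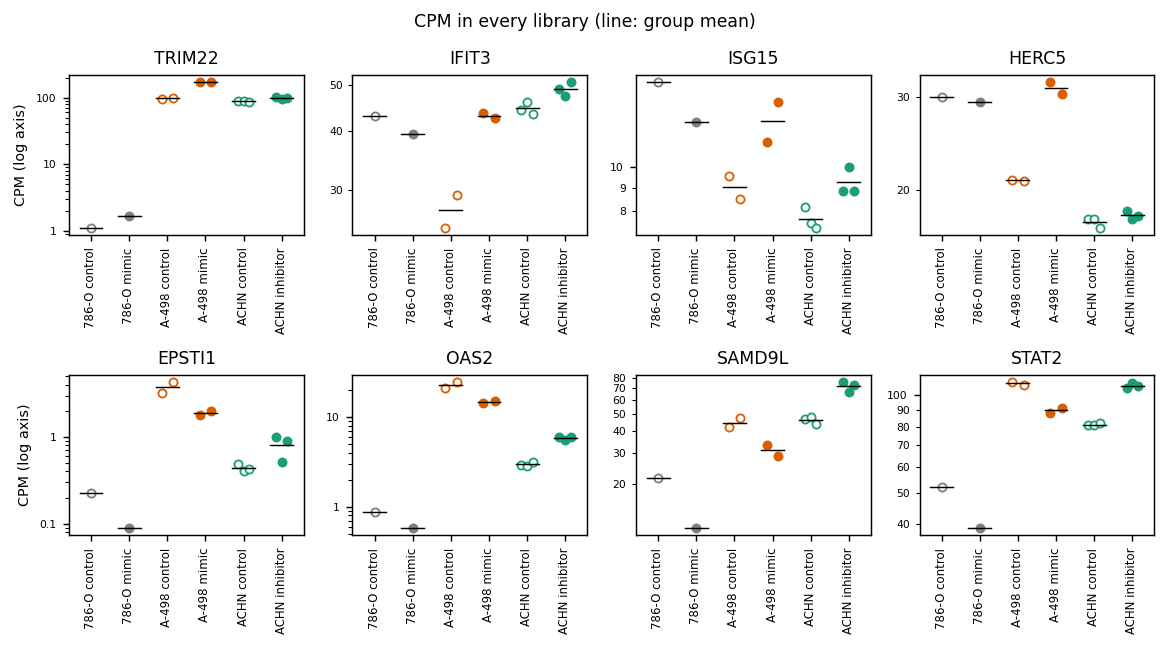
CPM (log axis) in every library for 8 interferon-stimulated genes, STAT2 among them, with groups along the x axis, open points for controls, filled points for treated libraries and lines for group means. TRIM22, IFIT3, ISG15 and HERC5 lay higher with the mimic in A-498. EPSTI1, OAS2, SAMD9L and STAT2 lay lower with the mimic in A-498 and higher with the inhibitor in ACHN.

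The OAS enzymes make 2′-5′ oligoadenylate on binding double-stranded RNA, a messenger that sets off the breakdown of RNA. OAS2 stood at 20.8 and 24.4 CPM in the control libraries and 14.4 and 15.1 CPM with the mimic in A-498 (-0.62 ± 0.08) and at 2.94, 2.85 and 3.17 CPM in the control libraries and 5.97, 5.51 and 5.98 CPM with the inhibitor in ACHN (0.96 ± 0.10, edgeR adjusted p = 5.92e-07). It was the member with the largest change in ACHN, and the groups did not overlap in either line. OAS3, which has a miR-29 site, stood at 62.3 and 64.3 CPM in the control libraries and 45.3 and 48.1 CPM with the mimic in A-498 (-0.44 ± 0.05). The ACHN levels were 114, 120.2 and 119.7 CPM in the control libraries and 129, 132 and 127 CPM with the inhibitor (0.13 ± 0.04), a call lost without any 1 of the controls or without inhibitor replicate 1 (0.10 to 0.14).

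OAS1 rose in ACHN, with 27.9, 27.3 and 29.1 CPM in the control libraries and 34.2, 34.1 and 33.3 CPM with the inhibitor (0.27 ± 0.05). In A-498 it stood at 24.4 and 29.7 CPM in the control libraries and 23.8 and 25.2 CPM with the mimic (-0.14 ± 0.08, not called), and it was called lower there without control replicate 1 (-0.29). OASL, a catalytically inactive relative that boosts RIG-I, went up in A-498 (0.38 ± 0.06), was not called in ACHN (0.20 ± 0.18), and had 171 and 82 counts in 786-O (-1.05). The ratios of OAS1, OAS2 and OAS3 in 786-O were -0.32, -0.56 and -0.03.

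EIF2AK2, which encodes the kinase PKR that stops translation on binding double-stranded RNA, was the only one of the 37 members tested in ACHN to be called lower there, with 145, 144 and 140.3 CPM in the control libraries and 123, 116 and 124 CPM with the inhibitor (-0.25 ± 0.05). In A-498 it stood at 171 and 191 CPM in the control libraries and 171 and 165 CPM with the mimic (-0.11 ± 0.05, not called), and it was called lower without control replicate 1 (-0.19). In 786-O it went the other way, from 145 to 208 CPM (0.52). IFIH1, which encodes the sensor MDA5, stood at 20.3 and 21.9 CPM in the control libraries and 24.6 and 24.4 CPM with the mimic in A-498 (0.21 ± 0.06) and at 18.4, 18.3 and 16.6 CPM in the control libraries and 17.7, 17.5 and 19.2 CPM with the inhibitor in ACHN (0.03 ± 0.06, not called). The A-498 call was lost without control replicate 1 (0.15), without either mimic replicate (0.20 and 0.22) and in DESeq2 (0.20). DDX60, a helicase linked to RIG-I signalling, fell in A-498, with 48.1 and 55.2 CPM in the control libraries and 41.7 and 42.0 CPM with the mimic (-0.30 ± 0.06), and rose in ACHN, with 26.5, 24.2 and 26.1 CPM in the control libraries and 32.6, 31.0 and 34.6 CPM with the inhibitor (0.36 ± 0.06). In both lines the groups were apart.

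Of the transcription factors, STAT2 changed in opposite directions. It stood at 109.7 and 108 CPM in the control libraries and 88.3 and 91.1 CPM with the mimic in A-498 (-0.28 ± 0.04) and at 80.7, 80.9 and 81.8 CPM in the control libraries and 105, 109 and 107 CPM with the inhibitor in ACHN (0.40 ± 0.04, edgeR adjusted p = 1.40e-06), with no overlap of groups. In 786-O its level was 51.9 CPM in the control and 38.9 CPM with the mimic (-0.41). IRF7, which drives interferon alpha genes, rose in A-498, with 6.70 and 6.55 CPM in the control libraries and 8.81 and 9.01 CPM with the mimic (0.43 ± 0.08), and was not called in ACHN, with 3.74, 3.63 and 4.20 CPM in the control libraries and 3.82, 3.83 and 3.29 CPM with the inhibitor (-0.08 ± 0.11). IRF9, the DNA-binding partner of STAT2, was counted at 0.66 to 1.14 CPM in every library and was not called in A-498 (-0.45 ± 0.24) or ACHN (0.13 ± 0.20), although it was called lower in A-498 without control replicate 1 (-0.70). Of its exon length 23.9% is shared with another annotated gene on the same strand, so its counts are uncertain.

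PARP9, DTX3L and PARP14 act together in ADP-ribosylation and interferon signalling. In A-498, DTX3L (0.20 ± 0.04) and PARP14 (0.13 ± 0.04) were higher, the latter not without control replicate 1 (0.07) or either mimic replicate (0.12 and 0.13) nor with no filter on low counts (0.10), and PARP9 was not called (0.04 ± 0.06). In ACHN, PARP14 rose (0.21 ± 0.04), and PARP9 (0.11 ± 0.05) and DTX3L (0.02 ± 0.04) were not called. The 3 ratios in 786-O were -0.18, -0.78 and -0.45.

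A-498 and ACHN shared no libraries, so the calls of the 37 members tested in both were set side by side. In 9 of them (24.3%, against 10.5% of the 16708 genes tested in both) the gene fell under the mimic and rose under the inhibitor, opposite ways under opposite treatments. These were OAS2, OAS3, EPSTI1, SAMD9, SAMD9L, IFI44, UBE2L6, DDX60 and STAT2. In 6 (16.2%, against 2.8% of all genes) the change was higher in both, namely TRIM22, IFIT2, IFIT3, ISG15, ISG20 and PARP14. With DESeq2 the counts were 8 and 4. Calls in the remaining directions (up under the mimic and down under the inhibitor, 7.37% of all genes, and lower in both, 2.56% of all genes) numbered 0 and 0 among the members in edgeR, 1 and 1 at an unadjusted p under 0.05, and 0 and 0 in DESeq2. Since the list was drawn up with both comparisons in view, nothing is read from the distance of these shares from those of all genes.

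**Figure D3:**
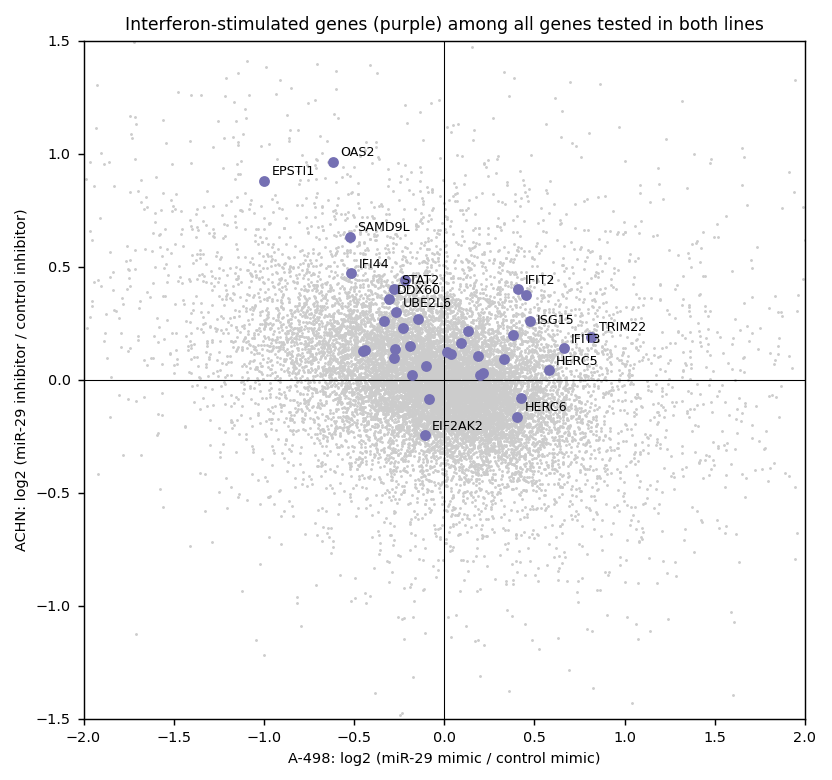
Log2 change with the mimic in A-498 (x axis) against log2 change with the inhibitor in ACHN (y axis) for the 37 interferon-stimulated genes tested in both lines (purple) and all 16708 genes tested in both (grey, of which 137 lie outside the axes). OAS2, EPSTI1, SAMD9L and IFI44 stand at the upper left. TRIM22, IFIT3 and IFIT2 stand right of 0 and above 0, and EIF2AK2 stands below 0 on the y axis.

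The mimic was given to both 786-O and A-498, and the difference of its effect between them was fitted as an interaction in edgeR over 6 libraries. With 1 library per group in 786-O the spread came from A-498 alone, and the genes were chosen with these changes known, so the counts are a description that depends on the assumed spread. Of 43 members, 16 were called more negative in 786-O (13.2% of all 22587 genes tested) and 5 were more positive (16.5% of all genes), and 29.6% of all genes were called either way. With DESeq2 the counts were 12 and 2, and when the biological coefficient of variation was set to 0.2 they were 0 and 0, with 3 and 1 at an unadjusted p under 0.05 in edgeR. The fit takes 786-O libraries to vary as A-498 libraries do, which could not be checked. All 4 IFIT genes and 4 of the 5 genes of the ISG15 system were among the 16, while OAS3, IFI44, EIF2AK2, IFITM2 and CMPK2 were the 5.

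Levels in the control libraries were compared between lines to describe these genes without the miR-29 mimic or inhibitor. The control cells had also been transfected, so their levels are not those before treatment. This comparison was no part of the rule that listed the genes, but the line and the kind of control oligonucleotide (mimic or inhibitor) cannot be told apart in it. Of 42 members tested between the A-498 and ACHN controls, 28 were higher in A-498 (41.0% of all 19689 genes tested) and 6 were lower (38.7% of all genes) by edgeR, with 79.8% of all genes called either way. The median log2 difference was 0.35 against 0.02 for all genes. In each control group LGALS3BP was the most abundant of the members per kilobase of exon, at 119.6 CPM per kb in 786-O and 181 CPM per kb in A-498.

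Several antiviral genes were close to absent in ACHN, and some of them also in 786-O. XAF1 had 1328 and 1709 counts in the A-498 controls, 0 to 1 in the ACHN controls and 1 in the 786-O control, and its ratio of A-498 to ACHN was 1710 (exact 95% interval 473 to 14130, counting error only). BST2 had 3979 and 4242 counts in A-498, 503 in 786-O and 2 to 5 in ACHN. RSAD2 had 102 and 142 counts in A-498 and 0 to 2 in ACHN, a ratio of 68.7 (26.5 to 254). IFITM1 had 44 and 55 counts in A-498 and 1 to 3 in ACHN, a ratio of 15.9 (7.45 to 40.7). CMPK2 had 129 and 155 counts in A-498, 1 to 5 in ACHN and 1 in 786-O. IFI27 had 1679 and 1850 counts in A-498, 25 in 786-O and 7 to 12 in ACHN, a log2 difference between A-498 and ACHN of 7.12 ± 0.12 (SE).

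Scaled over all 12 libraries, other members showed a graded order. OAS2 stood at 20.05 and 23.5 CPM in the A-498 controls, 2.84 to 3.17 CPM in ACHN and 0.90 CPM in 786-O. OASL stood at 16.7 and 17.5 CPM in A-498, 3.96 CPM in 786-O and 0.85 to 1.54 CPM in ACHN. TRIM22 was close in A-498 (92.1 and 96.0 CPM) and ACHN (84.7 to 89.8 CPM), with a small difference of 0.10 that was called in edgeR and not in DESeq2, and stood at 1.16 CPM in 786-O. IRF7 followed the same order, at 6.32 and 6.47 CPM in A-498, 3.62 to 4.20 CPM in ACHN and 0.37 CPM in 786-O. OAS1 stood at 23.5 and 28.7 CPM in A-498 and 27.2 to 29.1 CPM in ACHN, which overlapped, and at 3.29 CPM in 786-O. MX1 stood at 44.3 and 61.4 CPM in A-498, 24.6 to 26.0 CPM in ACHN and 1.95 CPM in 786-O. The 6 genes lower in A-498 than in ACHN were IFITM2 (-4.53 on the log2 scale), OAS3 (-0.95), IFIT5 (-0.81), IFIT3 (-0.76), SP110 (-0.59) and PARP14 (-0.36). IFITM3 (0.01), HERC6 (-0.03), USP18 (0.04) and UBE2L6 (-0.06) were not called between these lines. The highest control level was in A-498 for 25 members, in 786-O for 11, among them IFIT1, ISG15, HERC5 and HERC6, and in ACHN for 7.

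**Figure D4:**
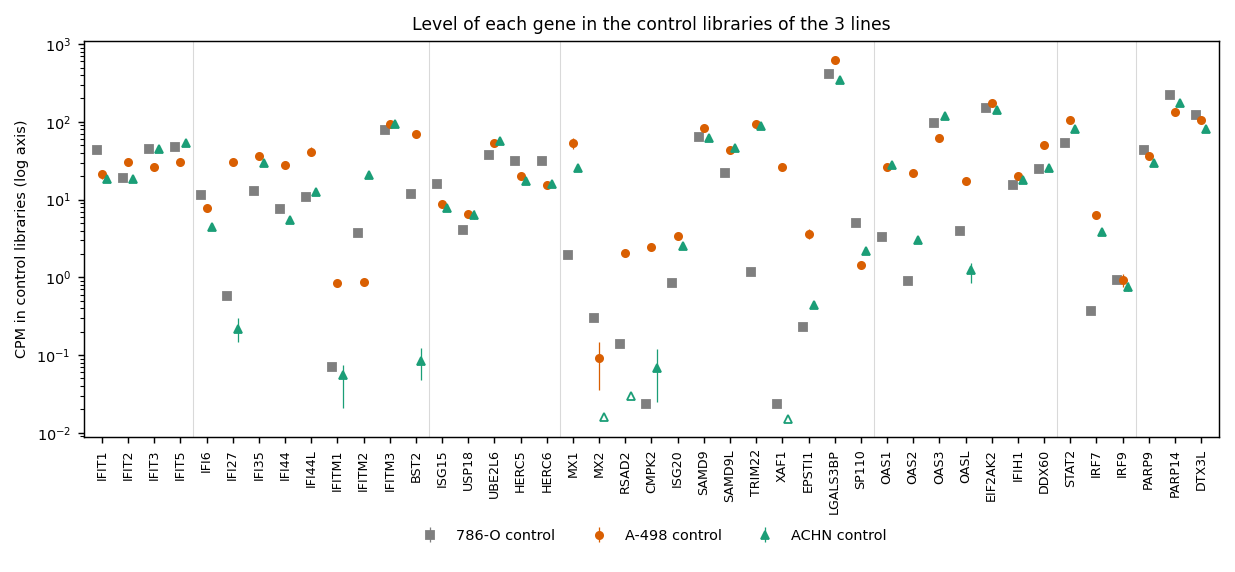
CPM in the control libraries (log axis, scaled over all 12 libraries) of each interferon-stimulated gene in 786-O (squares, 1 library), A-498 (circles, mean of 2) and ACHN (triangles, mean of 3), with bars from the lowest to the highest library and open symbols where a library held 0 counts. BST2, IFI27, XAF1 and RSAD2 stand highest in A-498 and near the bottom in ACHN, whereas IFITM3, EIF2AK2 and PARP9 lie close together in the 3 lines.

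The interferon genes themselves had few reads 48 h after transfection, and no earlier time was sampled. Of 22 ligand genes, between 19 and 22 had at most 3 counts in each library of a group, and IFNB1, the interferon beta gene, had 0 counts in 786-O and ACHN, 1 and 2 in the A-498 controls and 2 and 11 with the mimic. IFNL1 had at most 1 count in any library. Only IFNE, which is expressed constitutively in the female reproductive tract, was tested in A-498, where it had 40 and 54 counts in controls and 34 and 37 with the mimic (-0.49 ± 0.25, not called). In 786-O, IFNE had 4 and 21 counts. 

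Of 5 interferon receptor genes tested in A-498, 4 fell (27.0% of all genes) and IFNAR2 was not called (0.04 ± 0.06), and in ACHN 2 of 6 rose and 1 fell (17.3% of all genes were higher and 14.4% lower). IL10RB, a chain of the type III interferon and interleukin-10 receptors, stood at 52.0 and 51.9 CPM in the control libraries and 17.0 and 18.5 CPM with the mimic in A-498 (-1.55 ± 0.06) and at 16.0, 15.9 and 14.5 CPM in the control libraries and 25.6, 24.0 and 24.1 CPM with the inhibitor in ACHN (0.67 ± 0.06). IFNAR1, the first chain of the type I receptor, stood at 101 and 107 CPM in the control libraries and 73.9 and 74.0 CPM with the mimic in A-498 (-0.49 ± 0.04) and at 42.8, 44.5 and 41.3 CPM in the control libraries and 60.5, 53.2 and 59.2 CPM with the inhibitor in ACHN (0.43 ± 0.05). Neither gene had overlapping groups. In 786-O the ratios were -0.48 and -0.49. IFNGR2, of the type II receptor, fell in A-498 (-0.26 ± 0.04), and IFNLR1, the specific chain of the type III receptor, was lower in ACHN (-0.21 ± 0.07) and had 3 to 7 counts in A-498.

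Of 14 signalling genes, 7 rose and 2 fell in A-498 (25.5% of all genes were higher and 27.0% lower), and 4 rose and 3 fell in ACHN (17.3% of all genes were higher and 14.4% lower). STAT3, which carries a miR-29 site, fell in A-498 (-0.90 ± 0.04), rose in ACHN (0.44 ± 0.04) and was at -1.64 in 786-O. IRF1, a factor that can induce several of these genes without interferon, rose in A-498, with 39.4 and 38.6 CPM in the control libraries and 65.9 and 64.4 CPM with the mimic (0.74 ± 0.05), and in ACHN, with 59.6, 59.3 and 55.8 CPM in the control libraries and 68.4, 70.1 and 68.2 CPM with the inhibitor (0.24 ± 0.04), and was at -0.61 in 786-O. SOCS3, a feedback inhibitor of JAK kinases, rose in A-498 (0.87 ± 0.06) and was not called in ACHN (-0.005 ± 0.06). IRF5 was higher in A-498 (0.28 ± 0.08) and lower in ACHN (-0.24 ± 0.06).

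Among 15 genes of nucleic acid sensing, 7 of 13 tested rose and 5 fell in A-498 (25.5% of all genes were higher and 27.0% lower), and 6 of 11 rose in ACHN (17.3% of all genes). MAVS, the mitochondrial adaptor of RIG-I and MDA5, has a miR-29 site and fell in A-498 (-0.97 ± 0.04), rose in ACHN (0.22 ± 0.06) and was at -1.15 in 786-O. TLR3, the endosomal sensor of double-stranded RNA, also has a site, fell in A-498 (-0.17 ± 0.05) and rose in ACHN (0.37 ± 0.06). RIGI, which encodes RIG-I, was higher in A-498, with 28.1 and 36.4 CPM in the control libraries and 46.6 and 47.3 CPM with the mimic (0.54 ± 0.09), and in ACHN, with 48.8, 47.1 and 46.1 CPM in the control libraries and 56.6, 51.9 and 57.6 CPM with the inhibitor (0.23 ± 0.05), and was at 0.10 in 786-O. The DNA sensor CGAS had 0 to 7 counts and its adaptor STING1 1 to 6 counts per library in ACHN.

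**Figure D5:**
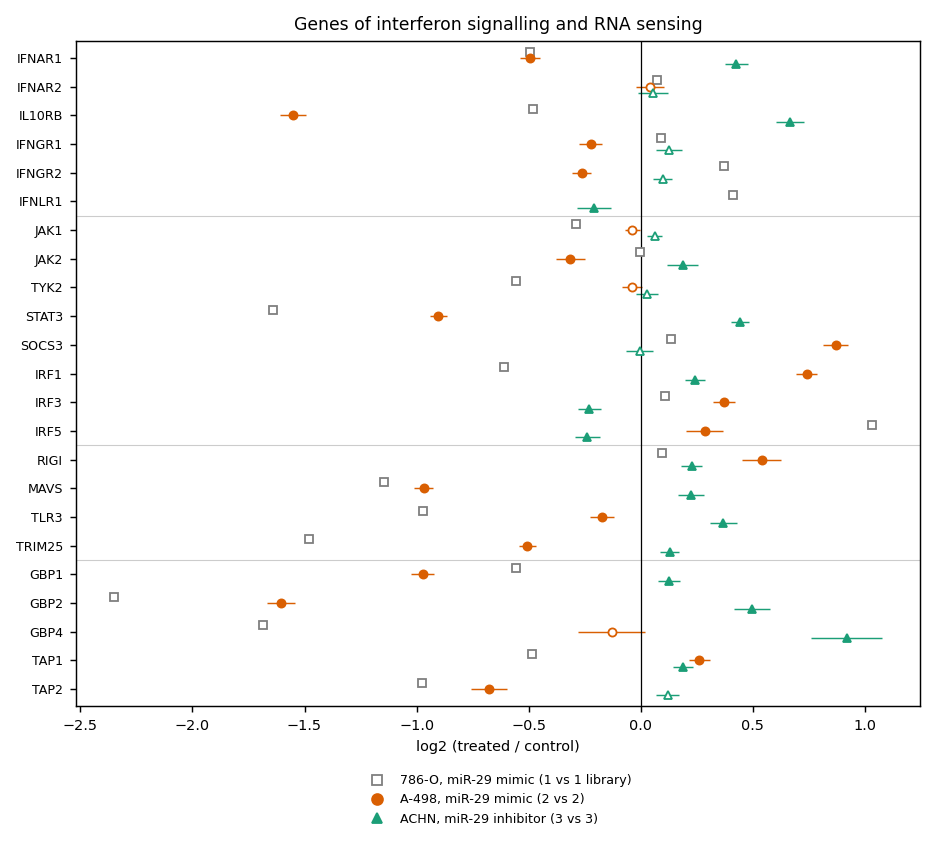
Log2 ratio of treated to control (x axis) for genes of the pathway lists, chosen for the plot after their values were seen, from top to bottom receptors, signalling, sensing, and type II interferon and antigen processing genes (separated by grey lines), with symbols and SE bars as in the plot of the interferon-stimulated genes. IFNAR1, IL10RB, STAT3, MAVS and GBP2 lie left of 0 in A-498 and 786-O and right of 0 in ACHN, whereas IRF1 and RIGI lie right of 0 in both A-498 and ACHN.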

How the data were processed

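RNA-seq of 12 libraries from 786-O, A-498 and ACHN was used. The authors prepared ribosome-depleted stranded libraries, sequenced 100 bp paired reads, aligned them to GRCh38 with HISAT2 and obtained gene counts with HTSeq-count (intersection-strict mode, Ensembl v87), and the deposited counts are raw. Reads not in genes made up 37.2% to 48.0% of each library and stayed out of library sizes. Deposited DESeq2 tables of the authors hold fold changes and p-values and were not used. Of 58051 genes, 98.1% had a symbol in GENCODE v44. No molecular identifiers were described, so intervals cover counting error only.

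Counts were tested with edgeR 4.0.16 (quasi-likelihood, TMM, filterByExpr by group) in R 4.3.3, within each line, with Benjamini-Hochberg adjustment over all genes tested and calls at 0.05. In 786-O log2 ratios of CPM (prior count 2, at least 10 counts) were used with no test. DESeq2 1.42.0, library-size scaling, no filter and leaving out each library were alternatives. The scripts were tested on simulated data. edgeR estimated a common biological coefficient of variation of 3.83% (A-498) and 5.25% (ACHN). Counts of every 2 replicate libraries differed beyond sampling noise, with chi-square values of 3.87 to 12.2 relative to the degrees of freedom.

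The members and the gene lists were chosen with earlier results of these data known. Values per library are given for a panel of 18 members and for the 4 members called higher and the 4 called lower with the largest change in A-498 and in ACHN (average log2 CPM of at least 0). From each pathway or marker list the 3 called genes with the largest change per line are named, with IRF1, RIGI, IFNB1, IFNL1 and IFNAR1. Some genes that this rule names are not reported here. Genes outside this rule, such as CGAS, STING1, IFNAR2 and IFNE, were chosen after their values were seen. Sites of miR-29 were exact matches in the longest 3′ UTR of GENCODE v44, a newer annotation than that of the counts, and all 17 were read back from GRCh38.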

Additional observations from a re-analysis of the deposited data

Results flagged for a closer look

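For 21 of the 43 interferon-stimulated genes the fitted effect of the miR-29 mimic was called different between 786-O and A-498 by the interaction term of edgeR (adjusted p under 0.05), and each is given as the log2 effect in 786-O minus that in A-498. The 16 more negative in 786-O were IFI44L (-1.76), OASL (-1.40), ISG20 (-1.34), PARP14 (-0.87), IFIT2 (-0.87), IFIT3 (-0.74), IFIH1 (-0.73), ISG15 (-0.72), DTX3L (-0.60), HERC5 (-0.57), HERC6 (-0.51), IFIT1 (-0.44), UBE2L6 (-0.43), DDX60 (-0.38), IFIT5 (-0.36) and LGALS3BP (-0.33). The 5 more positive in 786-O were CMPK2 (3.34, on 1 and 12 counts in 786-O), IFITM2 (0.87), EIF2AK2 (0.67), IFI44 (0.63) and OAS3 (0.46). With 1 library per group in 786-O the spread came from A-498 alone, and the list of genes was drawn up with this contrast in view, so these values are a description. With the biological coefficient of variation set to 0.2, 0 of the 21 calls were kept (in edgeR 3 more negative and 1 more positive at an unadjusted p under 0.05), and with DESeq2 14 were kept.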

How the results depend on the processing

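In ACHN, 13 members were higher at an adjusted p under 0.01 and 20 at 0.05, where 17.3% of all genes were higher. Shares of all genes called are not given for the stricter threshold or for the alternatives, so those counts of members are only a description. Leaving out 1 library at a time gave 15 to 19 higher and 1 to 2 lower in ACHN, 11 to 16 higher and 11 to 19 lower in A-498, 26 to 28 higher and 6 to 8 lower between the A-498 and ACHN controls, and 16 to 19 more negative and 4 to 6 more positive in 786-O than in A-498. Where this left 1 library in an A-498 arm, that library was taken to vary like the other group. In the comparison of 786-O with A-498, a biological coefficient of variation fixed at 0.2 gave 0 more positive and 0 more negative (1 and 3 at an unadjusted p under 0.05 in edgeR), and DESeq2 gave 2 more positive. A fit with the spread of all 12 libraries, chosen after seeing the data, gave 6 and 16. Library-size scaling moved the share of higher calls among all calls from 55.6% to 41.6% in that comparison. In 786-O the median ratio of the members was -0.295 with library-size scaling and -0.34 with at least 50 counts in both libraries together, where 0 members were higher by 2-fold or more, without a test. DESeq2 called 12 members higher and 12 lower in A-498, and 16 higher and 1 lower in ACHN. With a replicate block in ACHN, 20 members were higher and 1 lower, the same 21 genes. The deviations of same-numbered ACHN libraries correlated at 0.41, -0.15 and -0.01 over 10115 genes, so the numbers were not taken as pairs, and the A-498 groups share only number 1. Over single members, no change reversed its direction past the threshold. In A-498, 23 values lost their call under an alternative, 16 gained one and 255 stayed on their side of the threshold, called or not. In ACHN these were 29, 4 and 337. Members with under 50 counts in a library, such as IFITM1, EPSTI1 in ACHN and IRF9, are limited by depth.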

Other observations

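Of 16 genes of type II interferon signalling and antigen processing, 13 were tested in A-498, where 3 rose and 5 fell (25.5% and 27.0% of all genes), and 10 in ACHN, where 6 rose (17.3% of all genes). The guanylate-binding proteins, GTPases that attack the vacuoles of intracellular pathogens, had the largest fall of the list in A-498 (GBP2) and the largest rise in ACHN (GBP4). GBP2 stood at 34.9 and 36.5 CPM in the control libraries and 11.9 and 11.7 CPM with the mimic in A-498 (-1.60 ± 0.06) and at 10.7, 10.0 and 12.1 CPM in the control libraries and 14.7, 14.7 and 16.9 CPM with the inhibitor in ACHN (0.50 ± 0.08), with 64 and 11 counts in 786-O (-2.35). GBP1 fell in A-498 (-0.97 ± 0.05) and was higher in ACHN (0.13 ± 0.05). GBP4 stood at 1.21, 1.07 and 1.199 CPM in the control libraries and 2.03, 1.93 and 2.60 CPM with the inhibitor in ACHN (0.92 ± 0.16), where GBP3 also rose (0.34 ± 0.05), and neither was called in A-498 (-0.13 ± 0.15 and -0.05 ± 0.06). TAP2, a peptide transporter with a miR-29 site, fell in A-498 (-0.68 ± 0.08) and was at 0.12 ± 0.05 in ACHN, not called.

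In a further list of 30 interferon-stimulated genes outside the 43, 9 rose and 9 fell of 28 tested in A-498 (25.5% and 27.0% of all genes), and 10 rose and 2 fell of 30 in ACHN (17.3% and 14.4% of all genes), with medians of -0.04 and 0.11 against 0.0045 and 0.0038 for all genes. TMEM140, a membrane protein, stood at 10.2 and 12.8 CPM in the control libraries and 5.95 and 4.79 CPM with the mimic in A-498 (-1.10 ± 0.12) and at 2.16, 1.49 and 1.95 CPM in the control libraries and 4.52, 4.23 and 3.81 CPM with the inhibitor in ACHN (1.16 ± 0.13). NMI, the partner of IFI35, has a miR-29 site and stood at 31.3 and 34.0 CPM in the control libraries and 15.2 and 16.3 CPM with the mimic in A-498 (-1.05 ± 0.07), and it was not called in ACHN (0.11 ± 0.05). TNFSF10, the death ligand TRAIL, fell in A-498 (-0.30 ± 0.06) and rose in ACHN (0.48 ± 0.09). LAMP3 was higher in A-498 (1.80 ± 0.55) on 2 to 18 counts per library, and RTP4 was higher in ACHN (0.74 ± 0.22) on 22 to 76 counts.

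Among the marker lists used to check the cells, the renal genes with the largest changes in A-498 were LOX (-2.19 ± 0.08), EPCAM (1.18 ± 0.41) and PAX8 (0.82 ± 0.05), and in ACHN LOX (0.81 ± 0.05), VIM (-0.44 ± 0.04) and NNMT (0.36 ± 0.04). The change of EPCAM in A-498 rested on 11 to 44 counts per library. ITGAM (0.90 ± 0.13) and NCAM1 (-0.64 ± 0.07) of the immune list were called in A-498. PDGFRB was lower in A-498 (-1.51 ± 0.20) on 31 to 99 counts per library, and in ACHN PDGFRB (0.79 ± 0.15) and DCN (1.12 ± 0.29) were higher, on 62 to 165 and 10 to 44 counts. Of the known miR-29 targets, COL4A1 was at -2.44 ± 0.04 in A-498 and 1.59 ± 0.05 in ACHN, and SPARC at -2.35 ± 0.03 and 2.13 ± 0.04.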
